A study of Mus musculus with 4 samples.

Results

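Promoter flank peaks are the Zeb1-associated regions whose centre lay above 500 and at most 5000 bp from the transcription start site (TSS) of the gene to which the authors assigned them. They were chosen by the deposited distance alone, and 2725 of the 17435 peaks of the list met the rule, or 15.6% (95% Wilson interval 15.1 to 16.2%). Of these, 718 lay upstream of the TSS and 2007 downstream. The peaks came from chromatin immunoprecipitation followed by sequencing (ChIP-seq) in mouse embryonic stem cells (mESC) of the D3 line. Cells at passages p5 to p8 were kept in ground state medium (GS), which is N2B27 containing PD0325901 (1 μM, against MEK), CHIR99021 (3 μM, against GSK-3) and leukemia inhibitory factor (20 ng/mL). Crosslinking was in 1% formaldehyde, chromatin was broken into pieces near 200 bp, and 3 libraries were made with 8 μg of the anti-Zeb1 antibody H-102 and 1 input library without antibody. All libraries shared the same line and medium, so the only contrast was Zeb1 ChIP against input. The list holds 1 mean per peak over the libraries and no value per library, so no SD accompanies a peak, no test over samples could be made, and peaks were not treated as replicates.

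Zeb1 is a zinc finger transcription factor that binds E-boxes, short DNA words found in many promoters and enhancers. It recruits CtBP and histone deacetylases and is best known as a repressor of epithelial genes during the epithelial to mesenchymal transition (EMT). Sequence on either side of a TSS can hold the first exon and intron of the gene, regulatory elements of the same promoter, or parts of a neighbouring gene.

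The sequences below come from GRCm38.p6 (mm10) and are printed on the plus strand, with capitals marking a match to the form of the Zeb1 motif in JASPAR on either strand. They are 100 bases at the match nearest the peak centre whose window lay outside every annotated exon. Shown are those of the 5 peaks highest in enrichment on each side that had such a window, the peak on each side with the most treatment reads among those with such a window, and the mesendodermal genes of the study.
Cadm2: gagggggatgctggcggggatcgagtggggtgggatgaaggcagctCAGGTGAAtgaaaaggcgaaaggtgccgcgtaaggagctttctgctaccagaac
Runx2: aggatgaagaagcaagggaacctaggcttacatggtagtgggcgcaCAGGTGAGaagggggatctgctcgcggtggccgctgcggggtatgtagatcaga
Speg: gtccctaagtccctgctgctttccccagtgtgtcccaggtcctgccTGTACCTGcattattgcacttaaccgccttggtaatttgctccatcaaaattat
Defb39: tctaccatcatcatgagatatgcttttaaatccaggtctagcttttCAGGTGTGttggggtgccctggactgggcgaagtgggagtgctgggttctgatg
Igfbp7: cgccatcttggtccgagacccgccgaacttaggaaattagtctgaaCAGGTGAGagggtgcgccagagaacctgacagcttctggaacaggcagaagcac
Lipo1: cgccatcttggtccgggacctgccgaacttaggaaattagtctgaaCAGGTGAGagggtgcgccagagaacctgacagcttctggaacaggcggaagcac
Junb: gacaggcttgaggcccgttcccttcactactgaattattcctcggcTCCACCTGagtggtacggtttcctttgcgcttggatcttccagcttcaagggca
Mn1: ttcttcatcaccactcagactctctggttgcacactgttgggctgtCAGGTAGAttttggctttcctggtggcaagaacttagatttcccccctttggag
Tbx4: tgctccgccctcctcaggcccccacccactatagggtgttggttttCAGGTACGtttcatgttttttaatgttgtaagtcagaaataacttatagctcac
Wnt7b: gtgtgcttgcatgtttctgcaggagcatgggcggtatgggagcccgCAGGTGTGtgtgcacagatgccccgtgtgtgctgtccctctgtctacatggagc
The Cadm2 window (chr16:67619876-67619975), the Runx2 window (chr17:44735008-44735107) and the Speg window (chr1:75389595-75389694) lay in introns of these genes. The Defb39 window (chr8:19059541-19059640) also lay in an intron, in a peak whose centre the authors annotated to a LINE-1 element, L1Md_T. The Igfbp7 window (chr5:77409826-77409925) and the Lipo1 window (chr19:33595090-33595189) were intergenic, in peaks also annotated to L1Md_T. These last sequences differed at 3 of 100 bases, although their peaks were on Chr. 5 and Chr. 19, so these upstream peaks held nearly the same repeated sequence. The Junb window (chr8:84976017-84976116) was intergenic, and the Mn1 window (chr5:111421938-111422037), the Tbx4 window (chr11:85895479-85895578) and the Wnt7b window (chr15:85578190-85578289) were intronic. The match lay 24 bp from the peak centre at Igfbp7 and 10 bp at Lipo1, but 2963 bp away at Mn1 and 3558 bp at Junb, whose peaks were far longer.

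The label was first checked against the reference. The named transcript was found for 2690 flank peaks, and the deposited distance was within 2 bp of the recomputed one for 82.9% of them and within 100 bp for 93.5%. Negative distances lay upstream of the TSS in the reference, and 0 peaks matched with the opposite sign. The centre was above 500 and at most 5000 bp from the nearest reference TSS of any gene for 2507 peaks, or 92.0%. Another 203 centres, or 7.45%, lay within 500 bp of a reference TSS, and 15 lay more than 5000 bp from any. The name fits the centres but not the whole intervals, since 1569 flank peaks, or 57.6% (55.7 to 59.4%), were long enough to cover a reference TSS. Downstream peaks covered a TSS in 61.7% (59.5 to 63.8%) and upstream peaks in 46.1% (42.5 to 49.8%). The remaining 1156 peaks covered none.

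Peaks crowded against the inner limit on the downstream side. Between 500 and 1000 bp downstream there were 923 peaks, or 46.0% of that side, and 97.2% of them covered a TSS. The same distance upstream held 200 peaks, or 27.9% of that side, with 93.0% covering a TSS. From 3000 to 5000 bp the list held 456 downstream and 226 upstream peaks, of which 5.04% and 9.73% covered a TSS. The median distance was 1112 bp downstream and 1998 bp upstream. Flank peaks were thus 2 sets by geometry, broad peaks that reach the TSS from a centre beside it and peaks apart from it, and most values below are given for both.

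**Figure D1:**
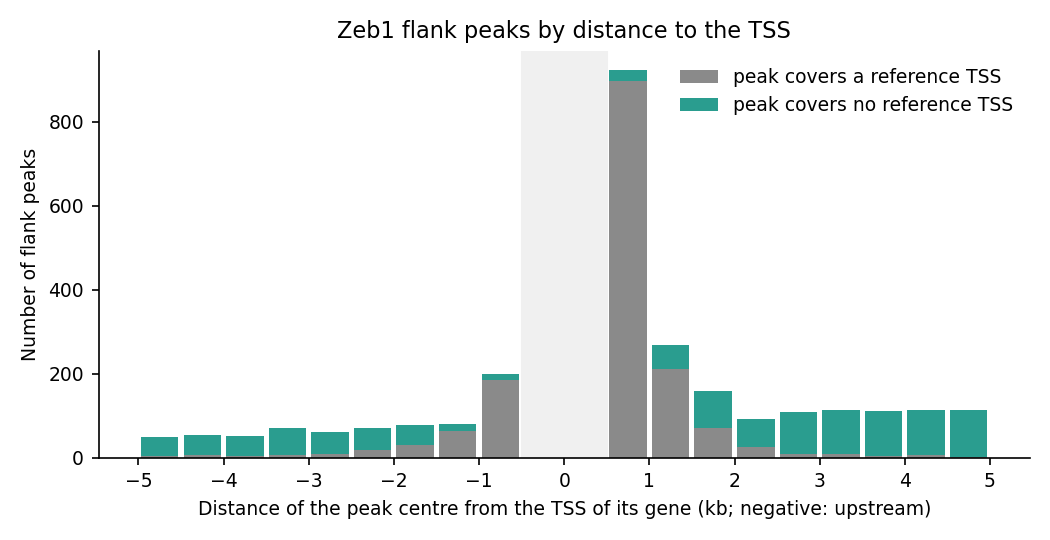
Number of flank peaks (vertical axis) in 500 bp steps of distance between peak centre and TSS (horizontal axis, kb, upstream negative), split into peaks that cover a reference TSS (grey) and peaks that cover none (green). The tallest bar holds 923 peaks at 500 to 1000 bp downstream, and the grey share falls to 0.877% at 4500 to 5000 bp downstream.

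Peaks next to the limits show what the rule separated. Just inside the inner limit were the upstream peaks of Fam222a at -501 bp (enrichment 5.07) and Papola at -502 bp (5.46), and the downstream peaks of H60b (9.03) and Purb (6.70), both at 501 bp. Just outside it were Eaf2 at -499 bp (4.36) and Tmem132e at -500 bp (10.3) upstream, and Spata5l1 (5.04) and Zfp335 (6.80), both at 500 bp downstream. All 8 covered a TSS, which their length fixed in advance. The shortest flank peak measured 1100 bp and the shortest within 500 bp 1150 bp, enough to reach a TSS at these distances. At the outer limit, Bahd1 at -4990 bp (3.70), Sf3b5 at -4975 bp (3.50), Sh3gl3 at 4992 bp (5.10) and Deaf1 at 5000 bp (4.57) were inside. Dct at -5004 bp (4.90), Aaas at -5016 bp (86.1 treatment reads), Mir6939 at 5001 bp (4.45) and Rbm42 at 5003 bp (6.50) were outside, and none of these 8 covered a TSS. Some of the named centres lay on the other side of the limit by the nearest reference TSS. These were Papola (497 bp), Aaas (4948 bp) and Sh3gl3 (70794 bp).

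Enrichment, the deposited ratio of treatment to input after scaling to mapped reads, had a median of 6.93 in flank peaks (interval of the median 6.84 to 7.05), with quartiles of 5.39 and 8.95. The median over all peaks was 6.50, within 500 bp of the TSS 6.67 (6.61 to 6.74), and that beyond 5 kb was lower (5.90 to 6.10). Downstream flank peaks had a median of 7.10 (6.94 to 7.29) and upstream peaks 6.54 (6.32 to 6.78). Peaks that covered a TSS had 7.39 (7.21 to 7.50) and peaks that covered none 6.35 (6.15 to 6.53). The upstream median was the lower one in both sets. Its interval was 6.70 to 7.33 against 7.30 to 7.64 among peaks covering a TSS, and 5.85 to 6.45 against 6.25 to 6.74 among the others, and these overlapped. The order turned in some strata, since upstream peaks had the higher median up to 1500 bp of length (5.75 against 5.66) and at 2000 to 3000 bp from the TSS (6.36 against 6.15). An enrichment of at least 10 was reached by 457 flank peaks, or 16.8% (15.4 to 18.2%), where 14.7% of all peaks, 12.3% of those within 500 bp and 16.8% of those beyond 5 kb reached it. It was reached by 18.0% (16.4 to 19.7%) of downstream and 13.4% (11.1 to 16.1%) of upstream peaks, and by 284 of 1569 peaks covering a TSS and 173 of 1156 covering none. The upstream interval and that of peaks covering no TSS hold the share of all peaks. Outside retrotransposons the share beyond 5 kb was 12.2%, below that of flank peaks.

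Flank peaks as a whole held more reads and were longer, but those covering no TSS held fewer. The flank median was 58.6 treatment reads and 18.3 input reads on 2500 bp, against 51.2, 16.6 and 1850 bp for peaks within 500 bp. Flank peaks covering a TSS had medians of 73.8 treatment reads, 21.0 input reads and 2900 bp, and those covering none 44.5, 14.6 and 1950 bp. Per kb, flank peaks had 23.8 treatment reads and peaks within 500 bp had 27.6, so the order turned once length was taken out. Within length classes the flank median of enrichment was not above that of peaks within 500 bp in 3 of 4 classes. Up to 1500 bp the medians were 5.70 and 5.94, from there to 2000 bp 6.58 and 6.54, and above 3000 bp 7.47 and 7.98. From 2000 to 3000 bp the flank interval of 6.84 to 7.26 held the other median, 7.12. Peaks above 3000 bp made up 32.7% of flank peaks and 6.03% of peaks within 500 bp.

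**Figure D2:**
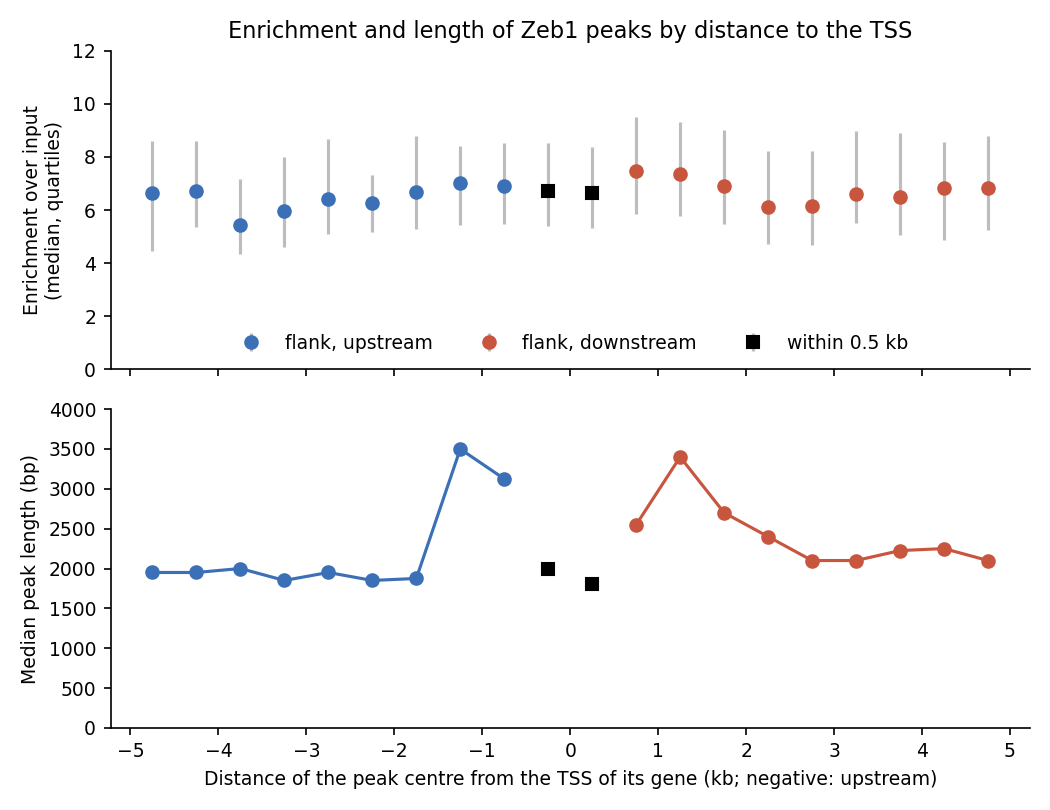
Median enrichment over input with quartiles (upper panel) and median length in bp (lower panel) in 500 bp steps of distance to the TSS (kb, upstream negative), for upstream (blue) and downstream (red) flank peaks and for peaks within 500 bp (black squares). Length reaches 3500 bp at 1000 to 1500 bp upstream and 3400 bp at the same distance downstream, while median enrichment stays between 5.44 and 7.46 across all flank steps.

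The downstream peak with the highest enrichment was that of Cadm2, a cell adhesion molecule of synapses, at chr16:67619351-67621250, with 49.2 treatment reads over 2.60 in input, at an enrichment of 42.5. It was centred 608 bp downstream, in the 5´ UTR. Pou4f1, a transcription factor of sensory neurons, followed with 31.3 at 1224 bp, in a coding exon, and Runx2, a transcription factor of bone formation, with 28.1 at 951 bp, in the first intron. Speg, a kinase of striated muscle, had 22.3 at 2815 bp in a coding exon, and the beta-defensin gene Defb39 had 22.3 at 4760 bp. The high ratios at Cadm2, Pou4f1 and Defb39 rested on few input reads (2.60, 4.29 and 3.40). Runx2 had 141 treatment reads over 10.0 input reads.

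On the upstream side the highest enrichment was at Kif7, a kinesin of the Hedgehog pathway, with 34.0 at chr7:79714801-79716150. That peak had 31.0 treatment reads and 2.00 input reads, was centred 1289 bp from the named TSS and 232 bp from the nearest reference TSS of the same gene. Lipo1 had 22.1, A330074K22Rik 20.5, Fscn3 20.1 and Igfbp7, a secreted binding protein of insulin-like growth factors, 18.2. The ratios at Lipo1 and Igfbp7 rested on 3.00 input reads each. A330074K22Rik had the most reads of the 5, with 120 treatment and 12.8 input reads over 2900 bp in a CpG island. An enrichment of at least 20 was reached by 14 flank peaks, 4 upstream and 10 downstream, or 0.514% (0.306 to 0.861%). The share was 1.31% of all peaks, 0.276% within 500 bp and 2.86% beyond 5 kb, or 0.851% there outside retrotransposons.

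The peaks with the most treatment reads were other ones, with moderate enrichment and great length. Downstream, Cilp2, a cartilage matrix protein gene, had 433 treatment reads over 10000 bp and an enrichment of 8.23. Mn1 had 349 reads and 12.8, Ing1, a chromatin reader, 296 and 9.67, Tril 287 and 10.6, and the TGF-beta family ligand Gdf1 283 and 7.86. Upstream, the AP-1 factor Junb had 289 reads over 8350 bp and an enrichment of 7.21, and the bromodomain protein gene Brd2 had 289 reads and 10.7. Zfp423 had 275 reads and 9.23, 9530052E02Rik 271 and 8.60, and BB283400 241 and 8.64. All 10 covered a reference TSS, and 6 of them lay on Chr. 8.

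Relative to the whole list, the flank share was higher on Chr. 7, 11 and 19 and lower on Chr. 1, 6, 16, X and Y, with intervals that did not hold the share of all peaks. Chr. 7 held 299 flank peaks, with an interval of 9.85 to 12.2%, against 7.61% of all peaks and 6.66% of peaks within 500 bp. Chr. 11 held 9.28% against 8.02% of all peaks and Chr. 19 4.04% against 3.11%. Chr. 1 held 4.18% of flank peaks against 5.80% of all peaks, Chr. 6 4.33% against 5.52%, Chr. 16 2.06% against 2.78%, Chr. Y 0 peaks against 0.184%, and Chr. X 0.734% (0.476 to 1.13%) against 1.58%. On Chr. 6, 11, 19, X and Y the share within 500 bp lay inside the flank interval. Chr. 8 held 8.37% (7.39 to 9.47%), an interval that holds the 7.59% of all peaks but not the 5.91% within 500 bp. The share on Chr. 8 was 10.9% (8.79 to 13.4%) upstream and 7.47% (6.40 to 8.71%) downstream.

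The assigned genes numbered 2461. For 1868 flank peaks, or 68.6%, the gene had no other peak within 5 kb of its TSS. Another 418, or 15.3%, were assigned to a gene that also had a peak within 500 bp, and 506 to a gene with a further flank peak. These shares differed widely between the sets, in part by construction. The list held 0 overlapping neighbours, and 94.1% of flank peaks covering a TSS covered the one named for them. Such a peak leaves little room for another centred within 500 bp of that TSS. No other peak within 5 kb was present for 84.2% of peaks covering a TSS and 47.3% of peaks covering none. A companion within 500 bp was present for 3.76% and 31.1% (28.5 to 33.8%). The share was no higher than elsewhere, at 36.0% of peaks beyond 5 kb, or 42.1% (40.5 to 43.6%) there outside retrotransposons. Of all protein-coding genes, 36.2% had a peak within 500 bp. For the 418, the edges of flank peak and companion were a median of 1300 bp apart, with a range of 50 to 633700 bp, so some pairs share a gene name and not a promoter. The medians of enrichment were 6.43 for the flank peak and 6.89 for its companion, and the flank peak was the higher in 190 of 418 pairs, or 45.5% (40.7 to 50.2%).

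More than 1 flank peak was assigned to 242 genes, and 162 genes had them on both sides. Kcnh2, the cardiac hERG potassium channel gene, had 4, the most of any gene, and also 1 peak within 500 bp. Its flank peaks lay at -971 bp (enrichment 12.3), -1959 bp (9.90), 2379 bp (5.19) and 4041 bp (7.40), and none covered a TSS. The distances refer to more than 1 annotated start, and the peak given as -1959 bp lay in an intron of another transcript of the gene. Another 20 genes had 3 each, among them the developmental transcription factors Foxc1, Nkx2-5, Pax9 and Tfap2a, the ERK feedback inhibitor Spry2, the Hedgehog ligand Dhh, the chromatin remodeller subunit Arid1a, the imprinted gene Gnas, and Speg, which had 3 peaks within 500 bp besides. Also among them were 1810041L15Rik, Arap1, Bai2, Espn, Leng9, Mir6927, Mir709, Mllt6, Nyap1 and Sema6b.

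Positions in the gene followed the side, which is largely a matter of definition, since the body of the assigned gene lies downstream of its TSS. Centres of downstream peaks lay in the first intron in 35.7%, in a coding exon in 34.2%, in a later intron in 16.2% and in the 5´ UTR in 7.13%. Upstream centres were intergenic in 46.4%, and in 38.6% they lay in the body of another gene, against 15.6% downstream. Of all peaks, 30.1% had an intergenic centre and 17.3% a centre in the body of another gene. Centres of all peaks lay in the first intron in 18.8%, a coding exon in 19.7%, a later intron in 11.5% and the 5´ UTR in 17.2%. Coding exons held 29.2% of all flank centres, against 19.8% within 500 bp and 15.6% beyond 5 kb, or 27.1% (25.8 to 28.6%) there outside retrotransposons. Among flank peaks that covered no TSS the share in coding exons was 36.8%. MicroRNA genes were named for 9.75% of upstream and 3.09% of downstream peaks, against 0.815% within 500 bp, 4.56% beyond 5 kb and 2.89% of all peaks. The downstream interval of 2.42 to 3.94% holds the share of all peaks, and the upstream interval of 7.79 to 12.1% does not. Downstream peaks covering a TSS had 1.62% (1.05 to 2.48%) and those covering none 5.46% (4.07 to 7.30%). Neither of these intervals holds the share of all peaks.

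The authors' detailed annotation gave 18.8% of flank peaks the label of a CpG island, with 18.5% upstream and 18.8% downstream. The share was 16.7% within 500 bp and 10.3% beyond 5 kb, or 18.0% (16.8 to 19.2%) there outside retrotransposons. Among peaks covering a TSS it was 16.6% upstream and 24.2% downstream, and among those covering none 20.2% and 10.1%. Over both sides these sets had 22.6% and 13.5%. The annotation gives 1 label per peak, and a promoter or exon label can stand in place of the island. These are therefore not the shares of peaks in CpG islands. LINE elements held 38 flank peaks, or 1.39%, and 37 of the 38 covered no TSS. The share was 0.0125% within 500 bp, 36.5% beyond 5 kb and 14.3% of all peaks. Upstream peaks were in LINE elements in 3.48% and downstream peaks in 0.648%.

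GC content and CpG dinucleotides in the 1000 bp around the centre lay between those near and far from the TSS. The median GC content was 59.4% in flank peaks and 63.1% within 500 bp. CpG observed over expected had medians of 0.579 and 0.771, and of 0.384 beyond 5 kb. Downstream peaks had 59.9% GC and a CpG ratio of 0.597, and upstream peaks 57.7% and 0.507. The split by TSS was wider, with a CpG ratio of 0.663 for peaks that covered a TSS and 0.452 for peaks that covered none.

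Around peaks that covered a TSS, mean GC content was highest not at the centre but 250 to 500 bp toward the TSS, at 63.2%. Around peaks that covered none, it was highest at the centre, at 59.8% and 59.7% in the 250 bp on either side, and fell to 50.7% between 1250 and 1500 bp toward the TSS. From there it rose again to 53.0% at 3500 to 3750 bp, the side on which the promoter lies, while on the far side it stayed at 48.9 to 49.8% beyond 1000 bp.

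The motif was searched on both strands as the E-box CACCTG and, for the JASPAR form, as CNCACCTG, CNTACCTG, TNCACCTG and TNTACCTG together. Both searches overlap, since part of the JASPAR form contains CACCTG. The JASPAR form occurred in the 1000 bp window of 1571 flank peaks, or 57.7% (55.8 to 59.5%), where 55.4% of all peaks held it. The share was 58.1% downstream and 56.4% upstream, with overlapping intervals. It was 63.8% (60.9 to 66.5%) in flank peaks that covered no TSS and 53.2% (50.7 to 55.6%) in those that covered one, beside 51.4% within 500 bp and 59.3% beyond 5 kb. CACCTG alone gave 71.9% (69.2 to 74.4%) and 60.1% for these flank sets, where 63.1% of all peaks held it. Beyond 5 kb the share was 67.5%, or 69.8% (68.4 to 71.3%) outside retrotransposons. The last interval overlaps that of flank peaks covering no TSS. Over whole peaks, which differ in length, the order of the JASPAR form turned, with overlapping intervals. The shares were 83.3% (81.0 to 85.3%) without a TSS and 86.1% (84.3 to 87.7%) with one. In windows of 300 bp, the JASPAR form occurred in 23.8% of flank peaks, 23.7% of all peaks and 16.9% of 32851 RefSeq promoters of GRCm38.p6, of which 23307 matched a reference TSS with 250 bases before it and 50 from it on. The flank value pools sets that differ. CACCTG was in such windows of 34.1% of flank peaks covering no TSS and 24.9% of those covering one. It was in 23.9% within 500 bp, 36.2% beyond 5 kb and 20.2% of the RefSeq promoters.

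GC content differs between the flank sets and bears on how often any word occurs, so the shares were also read at like GC content. Between 50 and 55% GC, the JASPAR form occurred in 68.4% (61.9 to 74.2%) of peaks covering no TSS and 53.4% (46.0 to 60.6%) of peaks covering one. Above 65% GC the shares were 64.1% (53.0 to 73.9%) and 44.1% (39.6 to 48.7%). Between 55 and 60% they were 64.0% and 59.3%, between 60 and 65% 61.8% and 57.2%, and up to 50% GC 55.7% and 45.3%, with overlapping intervals in these 3 classes. The share was the higher one without a TSS in all 5 classes. It was not particular to the flank. From the lowest GC class to the highest, peaks beyond 5 kb had 48.0%, 64.5%, 63.4%, 64.6% and 60.3%. Each lay inside the interval of flank peaks covering no TSS. The CpG ratio also differed between the flank sets and was not matched.

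By density, CACCTG occurred 1.38 times per kb (Poisson interval 1.31 to 1.44) in the central 1 kb of flank peaks covering no TSS, against 1.04 per kb at 3 to 5 kb from the centre, a ratio of 1.32. Flank peaks covering a TSS had 1.08 per kb (1.03 to 1.13) against 0.943, and peaks within 500 bp had a ratio of 1.11. Peaks beyond 5 kb had 1.83, and 1.25 where those in retrotransposons were left out. The density and GC content rose over the same stretch around peaks covering no TSS, and the part of GC content in this was not tested.

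**Figure D3:**
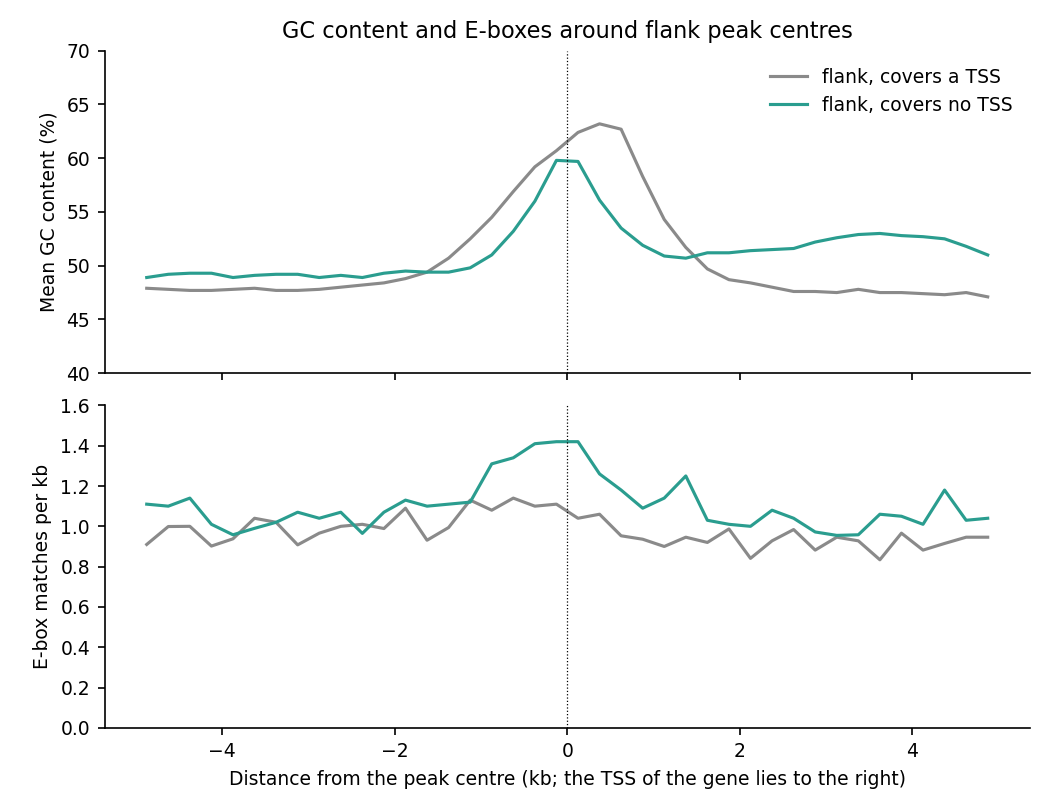
Mean GC content in percent (upper panel) and CACCTG matches per kb (lower panel) in 250 bp steps out to 5 kb from the peak centre, with the TSS of the gene to the right, for 1569 flank peaks that cover a TSS (grey) and 1156 that cover none (green). The green lines peak at the centre, at 59.8% GC and 1.42 matches per kb, and the grey GC line peaks at 63.2% to the right of it.

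Genes were described by 14 lists, each set beside the 21000 protein-coding genes with a curated transcript. Of these genes 2219, or 10.6%, had a flank peak, 36.2% a peak within 500 bp, and 4.42% a flank peak that covered no TSS. Shares of lists are descriptions, and promoters of developmental genes can differ from others in CpG content and length of unmethylated sequence, which was not tested here.

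Of the 5 mesendodermal genes on which the study centred, Wnt7b and Tbx4 had flank peaks, and all 5 had a peak within 500 bp. The study chose this list on these samples, so its count is not independent evidence. Wnt7b, a Wnt ligand, had a peak at chr15:85575601-85578700, 920 bp downstream in the first intron, with 96.7 treatment reads over 23.3 in input, at an enrichment of 8.91. Tbx4, a T-box factor of limb and lung mesenchyme, had upstream peaks at chr11:85885351-85887150 (enrichment 10.2) and chr11:85894651-85896850 (7.60). The first of these was given as -3813 bp from its named TSS but lay 117 bp from another reference TSS of Tbx4, and held 0 matches of either motif. The second, at -1015 bp from its named TSS, was centred in an intron of Tbx4 and so lay inside the gene. Each of the 3 peaks covered a TSS.

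Mesendoderm and primitive streak genes had flank peaks in 12 of 20 (38.7 to 78.1%), against 7 with a peak within 500 bp. Both were held by 1 of the 12, and by 356 of the 2219 protein-coding genes with a flank peak. A downstream flank peak was held by 10 of the 12, beside 1788 of the 2219 protein-coding genes with a flank peak. The highest enrichment was at the Nodal antagonist Lefty2 (906 bp, first intron, rank 1275 of all peaks), closely followed by the endoderm and heart factor Gata4 (4410 bp, coding exon, rank 1290). Lhx1 came after with 10.8 and Fgf8 with 8.98, and the T-box factor Eomes had 4.92. Of the 12 genes, 4 had a flank peak that covered no TSS.

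Cardiac transcription factors had flank peaks in 10 of 20 (29.9 to 70.1%), and 7 of the 20 had one that covered no TSS, or 35.0%, beside 4.42% of all protein-coding genes. Foxh1, a partner of Smad proteins in Nodal signalling, had the highest enrichment with 16.7 at 2898 bp, where the centre lay in a coding exon of the neighbouring gene Kifc2. Tbx1 had 13.7 at -631 bp and 9.67 at 4844 bp, and Hand1 11.2 at 4347 bp. Nkx2-5 had flank peaks at 2365 bp (8.69), 4440 bp (7.60) and -3060 bp (6.10), none covering a TSS, besides 1 peak within 500 bp.

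Wnt pathway genes had flank peaks in 23 of 50, or 46.0% (33.0 to 59.6%), with 22 genes having one downstream. The ligand Wnt10b led with 13.2 at 575 bp, followed by the transcription factor Lef1 with 11.4 and the feedback inhibitor Axin2 with 11.1, and the Frizzled receptors Fzd2, Fzd7 and Fzd5 had 10.9, 10.4 and 10.3. Notch pathway genes had them in 9 of 20 (45.0%), led by the receptor Notch3 with 10.5 at 702 bp. FGF and ERK feedback genes had them in 8 of 22 (36.4%), led by the receptor Fgfr2 with 15.6 at 1158 bp, in the first intron. BMP and TGF-beta pathway genes had them in 12 of 38 (31.6%), led by the receptor Bmpr2 with 12.2 at -554 bp. A flank peak covering no TSS was held by 5 of 20 Notch, 5 of 22 FGF and ERK feedback, 5 of 50 Wnt and 1 of 38 BMP and TGF-beta genes, beside 4.42% of all protein-coding genes.

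Naive pluripotency genes had flank peaks in 6 of 20 (14.5 to 51.9%), and another 6 had a peak within 500 bp. Klf2 had 12.1 at 738 bp with 196 treatment reads, and Klf4 11.5 at 725 bp with 184, both in coding exons. The others were Nr5a2 (8.46 and 6.75), Tbx3 (7.82), Esrrb (6.60) and Sall4 (6.20). Epithelial genes had flank peaks in 11 of 31 (35.5%), led by the keratin Krt8 with 12.3, and Epcam had 4.95 at 571 bp. EMT transcription factors had them in 3 of 10 (10.8 to 60.3%), which were Zeb2 with 8.05, Tcf3 with 5.60 and 5.50, and Snai3 with 4.40. Zeb1 corepressor genes had them in 5 of 18 (27.8%), led by Rcor3 with 11.2. Flank peaks covering no TSS were held by 1 of 20 naive pluripotency, 2 of 31 epithelial, 2 of 10 EMT and 1 of 18 corepressor genes. The share of all protein-coding genes was 4.42%.

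Nitric oxide and cGMP signalling genes had flank peaks in 6 of 20 (14.5 to 51.9%), led by the cGMP-dependent kinase Prkg1 with 11.3 at 533 bp. The peak of Nos2 was given as 4366 bp from the named TSS, lay 66 bp from another reference TSS, and had an enrichment of 6.75. Endothelial and hemangioblast genes had flank peaks in 7 of 21 (33.3%), led by Sox18 with 10.2. Ribosomal protein genes, which all cells express, had flank peaks in 11 of 77, or 14.3% (8.17 to 23.8%), an interval that holds the 10.6% of all protein-coding genes, and peaks within 500 bp in 36 of 77. Rps15 had the highest enrichment of that list with 12.9 at 594 bp. Flank peaks covering no TSS were held by 0 of 20 nitric oxide and cGMP, 3 of 21 endothelial and hemangioblast, and 2 of 77 ribosomal protein genes.

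**Figure D4:**
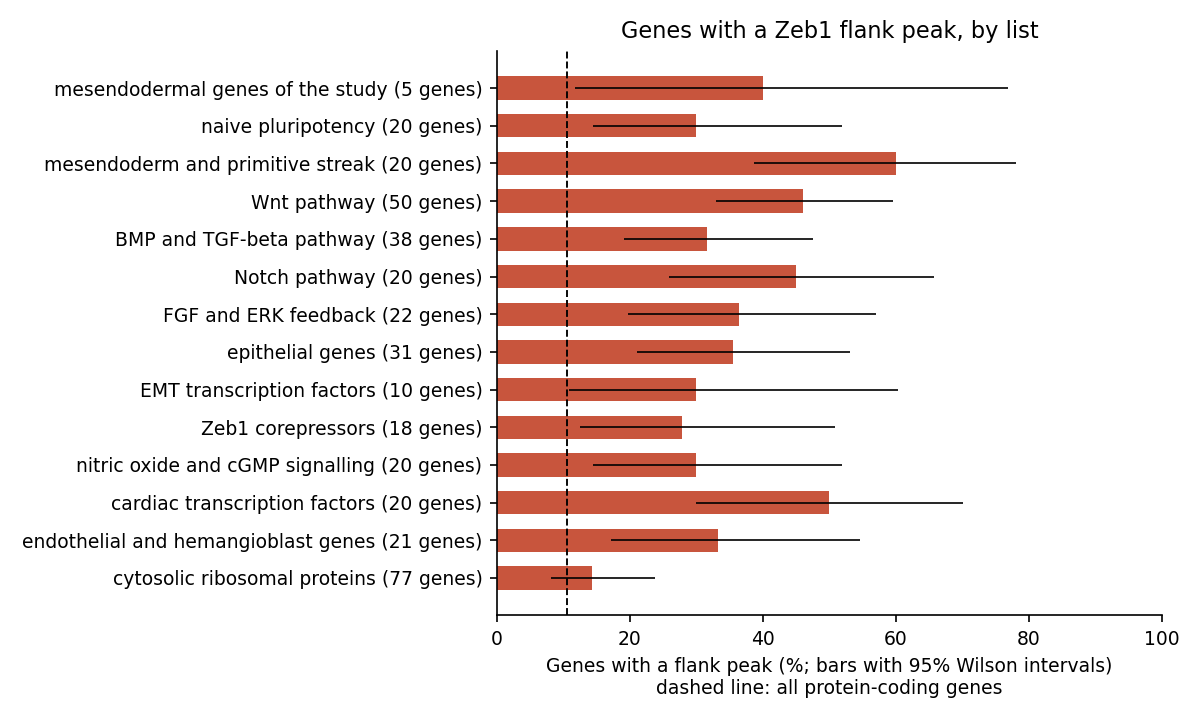
Percent of genes with a flank peak (horizontal bars, 95% Wilson intervals) for 14 gene lists, with the 10.6% of all protein-coding genes as a dashed line. Mesendoderm and primitive streak genes reach the greatest share, 12 of 20 genes, and ribosomal protein genes 14.3%.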

How the data were processed

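Zeb1 ChIP (3 libraries) and input (1 library) were made from mESC in GS. The authors aligned Ion Torrent reads to mm10 with STAR 2.4.2a, removed duplicates with Picard 1.136, called broad peaks per library against the input, kept those found in more than 1 ChIP library, recounted reads, averaged them and annotated peaks with HOMER 4.7. The deposited signal is reads per peak, averaged by the authors for ChIP and for input. The deposited enrichment is a ratio, treatment to input, which the authors scaled to mapped reads. The deposited p-value, 0 for each of 17435 peaks, served for no ranking. Library depth is unknown from the list. Signs of distances were read as in the reference (negative upstream), opposite to what the table's legend states.

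The reference was GRCm38.p6 with its 45756 curated RefSeq transcripts. Shares have 95% Wilson intervals and medians exact order-statistic intervals, which cover counting error over peaks and not variation between libraries. Members and gene lists were chosen with earlier results of these data known. The named genes are those of the 5 flank peaks highest in enrichment and in treatment reads on each side, the leading genes of each list, the study's mesendodermal genes, the peaks next to each limit and the genes with the most flank peaks. Further members of the lists were named after their values were seen. Functions were tested on simulated data. Scripts ran in Python 3.11.15 with matplotlib 3.10.9, pandas 2.3.3, SciPy 1.17.1 and NumPy 2.4.6.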

Additional observations from a re-analysis of the deposited data

How the results depend on the processing

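Of 45 alternative values, 7 were differences between the sides, and 0 of these changed direction. Median enrichment was lower upstream in the main setting (-0.555) and in 6 alternatives (-0.722 to -0.400), and the other, in reads per kb, gave -1.63. By strata it turned for peaks up to 1500 bp long (5.75 upstream, 5.66 downstream) and at 2000 to 3000 bp from the TSS (6.36 and 6.15). An inner limit of 1000 bp gave 1602 peaks, 32.3% upstream, a median enrichment of 6.67, a companion within 500 bp for 23.8%, the JASPAR form in 61.9% and a covered TSS in 30.3%. An outer limit of 3000 bp gave 24.1% upstream, a median of 7.10, 8.32% with a companion, the motif in 55.8% and a covered TSS in 74.6%. Distance to the nearest reference TSS gave 18.4% with a companion and 54.4% covering a TSS. Enrichment of at least 5 gave a median of 7.57, 12% with a companion and 61.8% covering a TSS. At least 40 treatment reads gave 23.5% upstream, a median of 7.47, 10.2% with a companion and 67.6% covering a TSS. Peaks that cover no TSS numbered 1156, with 33.5% upstream, a median of 6.35, 31.1% with a companion and the motif in 63.8%. The motif occurred in 15.6% of windows of 200 bp, 84.9% of whole peaks and, as CACCTG alone, 65.1% of windows. These changes follow from which peaks or bases each setting keeps or, for CACCTG alone and reads per kb, from the measure used. Leaving out each replicate was not run, since the list holds no value per library. No paired analysis was possible because the list holds no value per library and no result comes from a test.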
